A study of Mus musculus with 6 samples.

Results

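Transcripts of 10 endothelial and sinusoid genes were examined in articular cartilage from wildtype mice and from mice with a gene knocked out (KO). The genes were Pecam1, Cdh5, Kdr, Flt4, Tek, Tie1, Emcn, Stab1, Stab2 and Eng, and they were found by gene name as 10 of the 34709 rows of the deposited table. The series held 6 RNA-seq libraries of cartilage, 3 labelled KO and 3 labelled wildtype, with replicate numbers 1 to 3 in each group. By the study's methods the animals were male littermates, the KO line was bought from a supplier on a C57BL/6J background, and the number 18 in every column name is the age in months. The labels name no treatment for either group. Whether a library came from 1 animal or from pooled animals was not given in the sources used here, so p-values measure only the spread between these samples, which may be technical.

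Endothelial cells line all blood and lymphatic vessels. Articular cartilage has no vessels of its own, while the subchondral bone and marrow beneath it are densely supplied. In marrow the arterioles feed thin-walled sinusoids, wide venous channels through which mature blood cells enter the circulation. The 10 genes fall into roles along this wall. Pecam1 and Cdh5 hold neighbouring endothelial cells together, Kdr and Flt4 are receptors for vascular endothelial growth factors (VEGF), Tek and Tie1 form the receptor pair for angiopoietins, and Eng is a co-receptor for ligands of the TGF-beta and BMP family. Emcn is a sialomucin of capillary, venous and sinusoidal endothelium, and Stab1 and Stab2 are large scavenger receptors of sinusoids.

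Facts of the whole series bear on every value below. Total counts ranged from 52268311 to 63331135 per library. KO replicates 2 and 3 stood apart as a pair. The median squared difference of their counts was 5.77 times that of Poisson sampling, against 23.7 to 85.4 times for the other 14 pairs of libraries, so they were averaged and counted as 1 sample, which left 2 KO samples and 3 wildtype samples. The labelled tissue was checked against its markers. All 16 genes of a chondrocyte list were in the table. Their summed level was 758 to 1008 FPKM (fragments per kilobase of transcript and sequencing depth) in wildtype libraries. It was 780 and 788 FPKM in KO replicates 2 and 3, and 1697 FPKM in KO replicate 1. Most of the sum was Prg4, at a mean of 565 FPKM over the 6 libraries. Acan, Col2a1 and Sox9 had means of 17.3, 16.1 and 1.79 FPKM. Col9a1, Matn1 and Matn3 were near 0, at 0.193, 0.0714 and 0.0388 FPKM, so the sum does not speak for each marker. Blood cell genes were far higher, with 27317 to 43998 FPKM in wildtype and 51433 to 62718 FPKM in KO for 13 neutrophil genes, and 71704 to 108568 FPKM in wildtype and 24950 to 60714 FPKM in KO for 9 erythroid genes. Fewer cells of a type and less RNA per cell cannot be told apart in such bulk samples.

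The promoters of genes with the smallest p-values in the comparison below (Eng, Stab2 and Emcn) and of the gene with the smallest difference (Tie1) are shown. The promoters are given as a description, and no link between their letters and the levels in the libraries was tested. Each run gives the 250 bases before the RefSeq transcription start on the gene's strand (GRCm38.p6), at chr2:32646345-32646594 for Eng, chr10:87007943-87008192 for Stab2, chr3:137340828-137341077 for Emcn and chr4:118489850-118490099 for Tie1. Capitals mark AGGAAG or its reverse complement CTTCCT, a core of the sites bound by ETS factors, the family to which the endothelial regulators Erg and Fli1 belong.
Eng: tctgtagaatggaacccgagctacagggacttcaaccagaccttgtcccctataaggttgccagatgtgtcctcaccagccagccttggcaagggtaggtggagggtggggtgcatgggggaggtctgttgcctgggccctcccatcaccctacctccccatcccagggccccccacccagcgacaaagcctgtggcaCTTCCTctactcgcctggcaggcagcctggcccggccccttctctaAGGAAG
Stab2: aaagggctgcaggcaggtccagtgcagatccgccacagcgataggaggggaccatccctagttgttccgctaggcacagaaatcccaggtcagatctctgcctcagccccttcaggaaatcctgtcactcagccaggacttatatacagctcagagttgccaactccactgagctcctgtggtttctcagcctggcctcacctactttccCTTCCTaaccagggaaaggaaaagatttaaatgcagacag
Emcn: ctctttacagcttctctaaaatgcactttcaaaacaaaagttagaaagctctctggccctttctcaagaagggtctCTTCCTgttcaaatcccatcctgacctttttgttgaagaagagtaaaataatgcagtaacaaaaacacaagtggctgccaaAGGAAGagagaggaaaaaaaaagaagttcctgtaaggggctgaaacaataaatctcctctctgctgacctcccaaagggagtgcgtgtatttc
Tie1: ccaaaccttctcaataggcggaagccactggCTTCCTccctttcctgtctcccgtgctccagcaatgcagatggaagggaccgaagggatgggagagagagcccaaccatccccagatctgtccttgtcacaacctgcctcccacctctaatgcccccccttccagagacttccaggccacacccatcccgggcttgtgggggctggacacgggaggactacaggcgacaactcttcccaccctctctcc
Eng held 2 matches, the nearer of which ended 1 base before the start, and Emcn held 2 as well. Stab2, Tie1 and Stab1 held 1 each. Of the 8 members with a promoter in the table, 5 had at least 1 match on either strand, against 29.5% of all 32851 promoters over the same length. A GATA core (AGATAA or TTATCT) was in 0 of the 8, against 9.99% of all promoters. A TATA box (TATAAA or TTTATA) was in 0 of the 8 too, against 12.4%. The GC box GGGCGG, searched on both strands, was in 2 of the 8 (Kdr and Flt4), against 32.7%. These matches describe the letters of the window alone.

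Levels per length were compared first. Pecam1 had the highest mean over the 6 libraries, at 11.4 FPKM, followed by Eng at 8.59, Cdh5 at 4.72, Stab1 at 4.35, Tie1 at 4.18, Stab2 at 3.63, Tek at 2.67, Kdr at 2.64, Emcn at 1.92 and Flt4 at 1.59 FPKM. The upper positions were firm, since Pecam1 exceeded Eng and Eng exceeded Cdh5 in 6 of 6 libraries. Stab2 exceeded Tek, and Kdr exceeded Emcn, in 6 of 6 libraries too. Other neighbours changed places between libraries. Stab1 exceeded Tie1 in 3 of 6, Tek exceeded Kdr in 3 of 6, and Tie1 exceeded Stab2 and Emcn exceeded Flt4 in 4 of 6. All 10 genes passed the filter on low values, a mean of at least 0.5 FPKM, which kept 15373 genes for testing.

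To ask whether vessel genes differed between KO and wildtype cartilage, edgeR's quasi-likelihood test was run on the counts of all 15373 genes. All 10 endothelial and sinusoid genes had lower fitted values in KO, with log2 differences (KO minus wildtype) from -0.69 for Stab2 to -0.09 for Tie1 and a median of -0.46, where the median over all tested genes was -0.02. Negative values were found for 52.5% of all tested genes, and values under -0.25 for 23% of them and for 9 of the 10 members, all but Tie1. Over the 5 samples, the FPKM of both KO samples lay below all wildtype samples for 3 members (Tek, Emcn and Eng), beside 16% of all tested genes, and the groups were apart in either direction for 28.6%. None of the 10 passed an adjusted p-value of 0.05, at which 0% of all tested genes passed, and their adjusted p-values by edgeR with Benjamini-Hochberg adjustment ran from 0.325 (Eng) to 0.893 (Tie1). At an unadjusted p-value under 0.05, 3 of 10 were lower in KO (Eng, Stab2 and Emcn), beside 6.07% of all tested genes lower and 13.7% in either direction. With the 6 libraries as labelled, 0 of 10 passed the adjusted threshold, beside 3.71% of all genes, and 5 of 10 (the same 3, Pecam1 and Tek) were lower at an unadjusted p-value under 0.05, beside 10.3%.

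**Figure D1:**
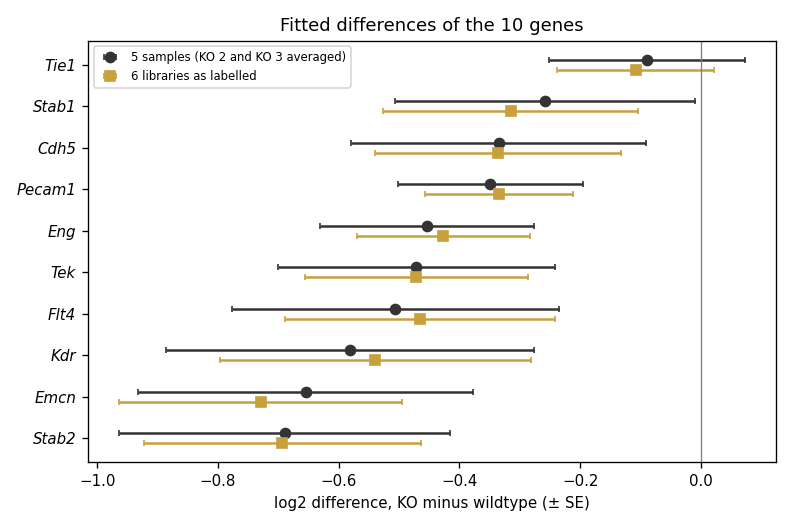
Fitted log2 differences (KO minus wildtype, x axis) of the 10 genes with standard errors as bars, for the 5 samples (circles) and the 6 libraries as labelled (squares). All values lie below 0, from -0.69 for Stab2 to -0.09 for Tie1 with 5 samples, and the bars of Tie1 cross 0.

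The junction molecules are described first. Pecam1 (ENSMUSG00000020717, chromosome 11, 106654217 to 106750628, minus strand, GRCm38), the adhesion molecule CD31, is also carried by platelets and many leukocytes. It was at 14.4, 10.2 and 13.6 FPKM in the wildtype libraries in replicate order, against 9.19, 10.8 and 10.2 FPKM in the KO libraries. Wildtype replicates 1 and 3 lay above every KO library, and wildtype replicate 2 lay among them. The wildtype mean was 12.7 ± 2.24 FPKM (SD, n = 3) and the KO mean 9.86 ± 0.945 FPKM (SD, n = 2), for a log2 difference of -0.35 (SE 0.15, with an edgeR adjusted p-value of 0.384).

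Cdh5 (ENSMUSG00000031871, chromosome 8, 104101625 to 104144511, plus strand) encodes VE-cadherin, the cadherin of endothelial adherens junctions and the member most restricted to endothelium. It was at 6.88, 3.63 and 5.34 FPKM in the wildtype libraries in replicate order, against 3.96, 4.44 and 4.07 FPKM in the KO libraries. Here wildtype replicate 2 was the lowest of the 6 libraries. The log2 difference was -0.34 (SE 0.24, with an edgeR adjusted p-value of 0.639), and it ranged from -0.53 without wildtype replicate 2 to -0.12 without wildtype replicate 1.

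The VEGF receptors come next, and Kdr had the widest spread of the 10 genes among wildtype libraries. Kdr (ENSMUSG00000062960, chromosome 5, 75932827 to 75978458, minus strand), or VEGFR2, the main signalling receptor for VEGF-A, was at 4.41, 1.94 and 3.04 FPKM in the wildtype libraries in replicate order, against 1.79, 2.26 and 2.38 FPKM in the KO libraries. The highest wildtype library had 2.28 times the level of the lowest. Its log2 difference was -0.58 (SE 0.30, with an edgeR adjusted p-value of 0.474), and leaving out wildtype replicate 1 or 2 gave -0.28 or -0.82.

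Flt4 (ENSMUSG00000020357, chromosome 11, 49609263 to 49652739, plus strand), or VEGFR3, the receptor for VEGF-C and VEGF-D, marks lymphatic vessels and, in marrow, sinusoids. It was at 2.45, 1.26 and 1.84 FPKM in wildtype and at 1.12, 1.49 and 1.39 FPKM in KO. Its log2 difference was -0.51 (SE 0.27, with an edgeR adjusted p-value of 0.483), or -0.28 when wildtype replicate 1 was left out. The ratio of Flt4 to Kdr moved little, from 0.555 to 0.659 over the 6 libraries. Prox1, the master regulator of lymphatic identity, was near 0 in every library, with a mean of 0.0269 FPKM and a highest value of 0.0845 FPKM in wildtype replicate 3.

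The angiopoietin receptor pair follows. Tek (ENSMUSG00000006386, chromosome 4, 94739289 to 94874976, plus strand), or TIE2, binds the angiopoietins and is also carried by some blood stem cells. It was at 3.96, 2.32 and 3.04 FPKM in wildtype and at 2.11, 2.34 and 2.23 FPKM in KO, with a log2 difference of -0.47 (SE 0.23, with an edgeR adjusted p-value of 0.440), or -0.28 when wildtype replicate 1 was left out. Averaged as 1 sample, KO replicates 2 and 3 lay just below wildtype replicate 2, so both KO samples lay below all wildtype samples, although KO replicate 2 taken alone was above it.

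Tie1 (ENSMUSG00000033191, chromosome 4, 118471191 to 118490061, minus strand), the receptor without a well-established ligand of its own, was the steadiest of the 10. It was at 5.07, 3.81 and 4.16 FPKM in wildtype and at 4.01, 4.15 and 3.88 FPKM in KO, so that the KO libraries lay within the wildtype range. Its log2 difference was -0.09 (SE 0.16, with an edgeR adjusted p-value of 0.893). Leaving out wildtype replicate 1 gave 0.010. The ratio of Tie1 to Tek was 1.898, 1.78 and 1.74 in the KO libraries in replicate order, against 1.28, 1.64 and 1.37 in the wildtype libraries. The groups did not overlap, and the exact permutation test on the 5 samples (two-sided) gave its smallest possible p-value of 0.2, or 0.6 after adjustment over 9 ratios.

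Eng (ENSMUSG00000026814, chromosome 2, 32646595 to 32682658, plus strand), or endoglin, the co-receptor mutated in hereditary haemorrhagic telangiectasia, had the smallest p-value of the 10. It was at 11.9, 7.84 and 9.88 FPKM in wildtype and at 6.42, 7.92 and 7.61 FPKM in KO. KO replicate 1 was lowest, and KO replicate 2 and wildtype replicate 2 were nearly level. The wildtype mean was 9.86 ± 2.01 FPKM (SD, n = 3), and the KO mean was 7.09 ± 0.948 FPKM (SD, n = 2). The log2 difference was -0.45 (SE 0.18, with edgeR p-values of 0.0369 unadjusted and 0.325 adjusted). Eng shares 61 bases with the oppositely oriented gene Fpgs, at a mean of 3.92 FPKM. The libraries kept strand, but whether the counting used it was not given in the sources used here.

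Genes of sinusoids come last. Emcn (ENSMUSG00000054690, chromosome 3, 137341067 to 137432185, plus strand), or endomucin, was at 3.26, 1.91 and 2.04 FPKM in wildtype and at 1.67, 1.36 and 1.28 FPKM in KO. In FPKM, Emcn was the 1 member of 10 for which all 3 KO libraries lay below all 3 wildtype libraries, beside 13.7% of all tested genes. In log2 CPM (counts scaled to library size with TMM factors) this held for 5 members (Emcn, Pecam1, Tek, Stab2 and Eng), beside 13% of all tested genes. Its log2 difference was -0.65 (SE 0.28, with edgeR p-values of 0.0496 unadjusted and 0.364 adjusted), and leaving out KO replicate 1 gave -0.89, while leaving out wildtype replicate 1 gave -0.40.

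Stab2 (ENSMUSG00000035459, chromosome 10, 86841198 to 87008025, minus strand), a hyaluronan-clearing scavenger receptor of sinusoidal endothelium, had the largest log2 difference of the 10 with 5 samples, -0.69 (SE 0.27, with edgeR p-values of 0.0395 unadjusted and 0.332 adjusted). It was at 5.57, 2.74 and 5.19 FPKM in wildtype and at 2.65, 2.74 and 2.90 FPKM in KO. Wildtype replicates 1 and 3 were high, and wildtype replicate 2 was level with the KO libraries. With the 6 libraries as labelled Emcn was the larger, at -0.73 against -0.69. Without wildtype replicate 2 the log2 difference of Stab2 was -0.93, and without wildtype replicate 1 it was -0.53.

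Stab1 (ENSMUSG00000042286, chromosome 14, 31139013 to 31168641, minus strand), its paralog, is also made by tissue macrophages. It was at 6.53, 3.43 and 4.56 FPKM in wildtype and at 4.26, 3.64 and 3.67 FPKM in KO, with KO replicate 1 close to wildtype replicate 3. Its log2 difference was -0.26 (SE 0.25, with an edgeR adjusted p-value of 0.748). Leaving out wildtype replicate 1 gave -0.0094. The ratio of Stab1 to Stab2 was 1.26 to 1.61 in the KO libraries and 0.880 to 1.25 in the wildtype libraries. Its p-value over the 5 samples was again 0.2, or 0.6 after adjustment, by the two-sided exact permutation test. Stab1 shares 112 bases with the oppositely oriented gene Nt5dc2, which was at a mean of 12.8 FPKM.

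**Figure D2:**
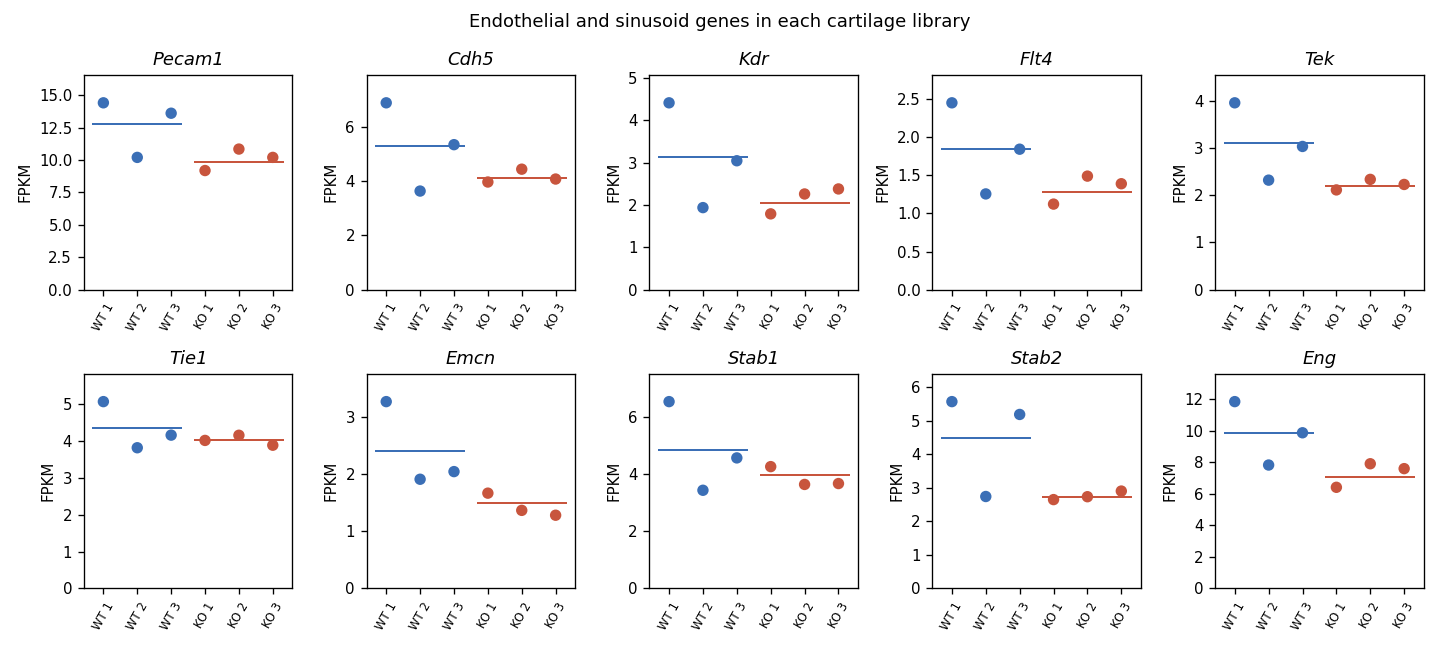
FPKM (y axis, from 0) of each of the 10 genes in wildtype (WT, blue) and KO (red) libraries, with lines at the mean of 3 wildtype samples and of 2 KO samples (KO 2 and KO 3 averaged). Wildtype replicate 1 is the highest point in every panel. Examples are Tie1, at 5.07 FPKM against 3.81 to 4.16 FPKM elsewhere, and Eng, at 11.9 FPKM against 6.42 to 9.88 FPKM.

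On the log2 CPM scale, the 3 wildtype libraries spanned 0.31 (Tie1) to 1.09 (Kdr), with a median of 0.75 over the 10 genes, against a median of 0.34 over all tested genes. The span was above 0.5 for 7 members (all but Pecam1, Tie1 and Eng), beside 31.1% of all tested genes. The 3 KO libraries spanned 0.07 (Tek) to 0.48 (Emcn), with a median of 0.17 against 0.38 over all tested genes, but KO replicates 2 and 3 count as 1 sample, so the spans of the groups cannot be set against each other. Wildtype replicate 1 was the highest of the 6 libraries for 10 of 10 members, as it was for 20.9% of all tested genes. Wildtype replicate 2 was the lowest wildtype library for 10 of 10 members, as it was for 36.1% of all tested genes. Wildtype replicates 1 and 3 were both above all 3 KO libraries for 9 of 10 members (all but Tie1), beside 18.8% of all genes. Relative to the wildtype mean, the median of the 10 genes was 0.36, -0.36 and 0.02 in the wildtype libraries in replicate order, against -0.43, -0.37 and -0.39 in the KO libraries. Wildtype replicate 2 thus stood near the KO libraries in its median, and it lay within their range for 4 members (Kdr, Flt4, Tie1 and Stab1), beside 39.7% of all tested genes.

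**Figure D3:**
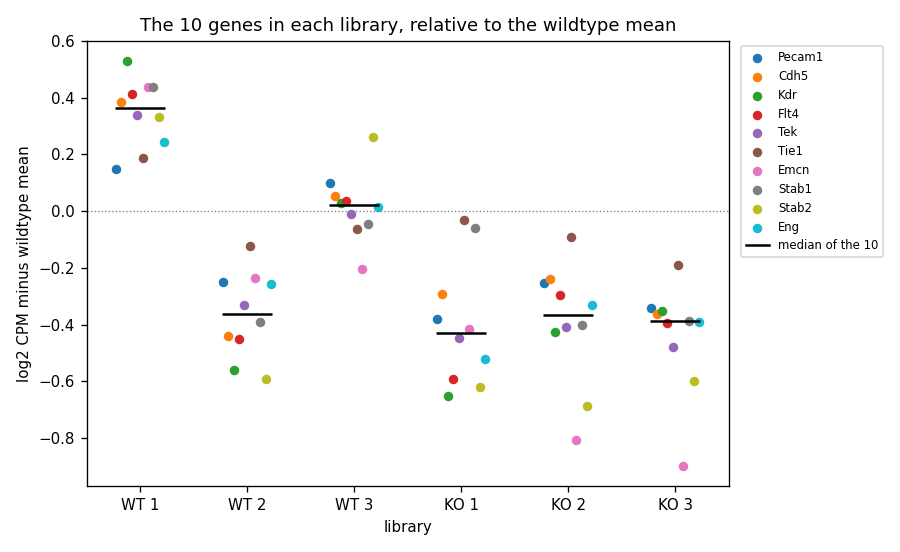
Log2 CPM minus the wildtype mean (y axis) of the 10 genes in each library (x axis), with a bar at their median. The medians are 0.36, -0.36 and 0.02 in wildtype replicates 1 to 3 and -0.43 to -0.37 in the KO libraries.

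The size of the difference depended on which wildtype library was left out. Without wildtype replicate 2, 8 of 10 members (all but Tie1 and Stab1) were lower in KO at an unadjusted p-value under 0.05, beside 6.17% of all tested genes, with a median log2 difference of -0.60 and a lowest adjusted p-value of 0.221 by edgeR. Without wildtype replicate 1, 0 of 10 were, beside 4.18% of all tested genes, and the median was -0.28. Without wildtype replicate 3, 0 of 10 were, beside 3.97% of all tested genes, while the median was -0.46. The median was -0.41 without KO replicate 1 and -0.45 without KO replicates 2 and 3, in fits where the lone KO sample was assumed to vary like the wildtype samples. Single members moved more between these fits, in that order from -0.89 to -0.44 for Emcn and from -0.43 to -0.09 for Stab1. Kdr went the other way, from -0.46 to -0.71, while Tek was at -0.47 in both. In KO replicates 1, 2 and 3 the median for the vessel genes was -0.43, -0.37 and -0.39. That for erythroid genes was -0.42, -1.40 and -1.38 and that for chondrocyte genes 0.62, -0.38 and -0.28. Closeness between the KO libraries was not particular to the vessel genes. Neutrophil genes had medians of 0.78, 0.80 and 0.80, and other pan-endothelial genes of -0.31, -0.44 and -0.43.

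**Figure D4:**
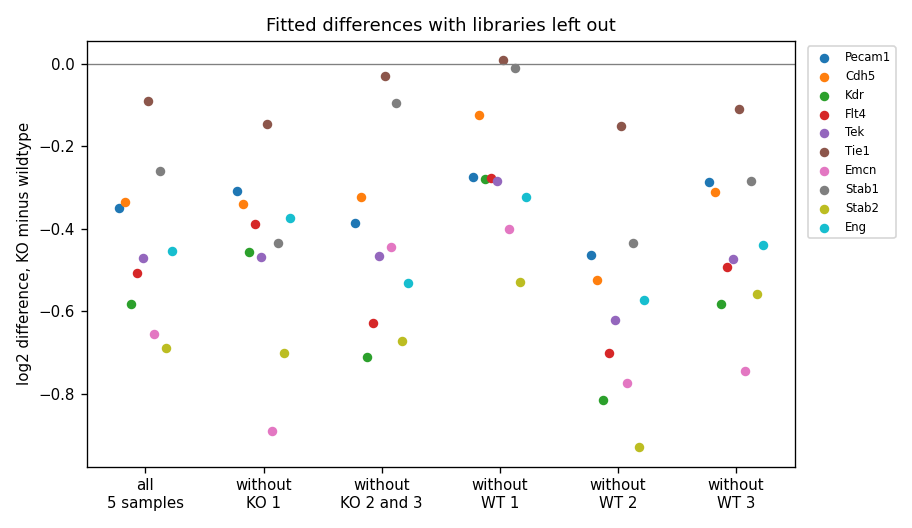
Fitted log2 differences (KO minus wildtype, y axis) of the 10 genes with all 5 samples and with 1 wildtype library, KO replicate 1, or KO replicates 2 and 3 left out (x axis). Values lie closest to 0 without wildtype replicate 1, from -0.53 to 0.010, and farthest below it without wildtype replicate 2, from -0.93 to -0.15.

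How alike the members were to each other was measured as the root mean square difference of their centred log2(FPKM + 0.1) profiles over the 6 libraries. Tek and Eng were the closest pair, at 0.07, followed by Pecam1 and Eng at 0.07 and by Kdr and Flt4 at 0.09. Tie1 and Stab2 were the farthest apart, at 0.35. The mean profile of the 10 was then compared with 13305 other genes of at least 1 FPKM. The 5 nearest were Ufsp1 (0.02), Ttpal (0.05), Plvap (0.05), Trim26 (0.05) and Cd300lg (0.06). Of these, Plvap encodes the diaphragm protein of fenestrated and sinusoidal endothelium, and Cd300lg an endothelial mucin-like receptor. Plvap was at 16.7, 9.55 and 13.3 FPKM in the wildtype libraries in replicate order, against 9.81, 9.51 and 9.55 FPKM in the KO libraries. Ufsp1, a peptidase gene and the nearest, was at 17.1, 10.3 and 13.8 FPKM in wildtype and at 9.84, 10.5 and 10.3 FPKM in KO. Both were picked for their likeness to the members, so sharing the pattern followed from the choice. With 13305 genes compared over 6 libraries, close profiles also occur among genes with no vessel role. The members themselves lay from 0.02 (Tek) to 0.22 (Emcn) from their mean profile. Ranked against these other genes, Emcn was at place 1237, Tie1 at 707 and Stab2 at 501.

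Other endothelial genes were then taken from lists. Of 22 further pan-endothelial genes, 20 were tested, with 17 lower and 3 higher in KO, a median log2 difference of -0.38, and 0 past the adjusted threshold with 5 samples. The 4 with the smallest p-values and at least 1 FPKM were Erg, Ptprb, Esam and Tal1. Erg, an ETS factor of endothelium and also of blood progenitors, was higher in KO, at 7.07 to 7.68 FPKM in wildtype and 9.23 to 11.6 FPKM in KO. Its log2 difference was 0.53 (edgeR adjusted p-value 0.186). With the 6 libraries as labelled its edgeR adjusted p-value was 0.0401, in a fit that called 378 of 15373 tested genes higher. Ptprb, the phosphatase VE-PTP that dampens TEK signalling, had a log2 difference of -1.60 (edgeR adjusted p-value 0.208). It was at 0.386 and 1.32 FPKM in KO replicates 2 and 3, so its value differed even between that close pair. Esam, a tight-junction adhesion molecule, had a log2 difference of -0.50, and Tal1, a factor of blood and endothelium, one of -0.42.

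Ligands and co-receptors of the VEGF family were mixed in direction. Of 8 genes 7 were tested, with 5 lower and 2 higher, a median of -0.32 and 0 past the threshold in either fit. Vegfc, the main ligand of FLT4, was at 3.32, 2.65 and 3.87 FPKM in wildtype and at 2.21, 2.04 and 1.71 FPKM in KO, with a log2 difference of -0.65 (edgeR adjusted p-value 0.315). Vegfa, chosen here after its value was seen as the main ligand of KDR, had a log2 difference of 0.16. Pgf, Nrp2 and Vegfb had values of -0.86, -0.63 and -0.32. Among angiopoietins and TIE partners, 5 of 6 genes were tested and all 5 had lower fitted values, with a median of -0.86 and 0 past the threshold in either fit. Angpt1, the agonist of TEK made by stromal and megakaryocytic cells, had a log2 difference of -0.49 (edgeR adjusted p-value 0.289), Angpt2, the context-dependent antagonist released by endothelium, one of -1.01 (0.340), and Angpt4 one of -0.58 (0.412). Angpt2 was at 2.67, 0.975 and 1.47 FPKM in wildtype and at 0.804, 0.678 and 1.008 FPKM in KO, again with wildtype replicate 1 high and wildtype replicate 2 within the KO range.

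Partners of Eng were mixed in direction too. Of the endoglin pathway's 15 genes 13 were tested, with 5 higher and 8 lower and a median of -0.06. Acvrl1, the receptor ALK1 that signals together with endoglin, was at 6.38, 6.002 and 7.94 FPKM in the wildtype libraries in replicate order, against 11.1, 14.8 and 14.05 FPKM in the KO libraries. The groups did not overlap over the 5 samples, beside 28.6% of all tested genes apart in either direction. The log2 difference was 0.92 (SE 0.16, with an edgeR adjusted p-value of 0.166). With the 6 libraries as labelled the edgeR adjusted p-value was 0.0358, in a fit that called 378 of 15373 tested genes higher. Tgfbr2 had a log2 difference of -0.40, Smad4 of 0.24 and Id2 of 0.38. For the catenins and adhesion partners of cadherin and PECAM, all 9 were tested and all 9 had lower fitted values, but these were small, with a median of -0.15 and a range from -0.44 (Tjp1) to -0.03. Cd99l2, Jam3 and Ctnnb1 had values of -0.33, -0.43 and -0.15.

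Vessel subtypes were compared next. Among arterial and Notch genes 10 of 12 were tested, with 4 higher and 6 lower and a median of -0.28. Bmx, a kinase of arterial endothelium and also of neutrophils and other myeloid cells, was at 7.91 to 8.29 FPKM in wildtype and 11.2 to 15.4 FPKM in KO. Its log2 difference was 0.72 (edgeR adjusted p-value 0.166). With the 6 libraries as labelled its edgeR adjusted p-value was 0.0358, beside the same 378 of 15373 tested genes called higher. Notch1 was higher by 0.54, and Sema3g and Gja4 had values of -0.59 and -1.06. All 6 venous genes had lower fitted values, with a median of -0.50 and 0 past the threshold. Among them Ackr1, the atypical chemokine receptor of venules that erythroid cells carry too, was at 12.4, 14.03 and 17.0 FPKM in wildtype and at 9.68, 7.52 and 8.75 FPKM in KO. All 3 KO libraries lay below all 3 wildtype libraries, as they did for 13.7% of all tested genes. Vcam1, Ephb4 and Sele had log2 differences of -0.54, -0.38 and -0.46. Among lymphatic genes 4 of 6 were tested, all 4 with lower fitted values (median -0.37). Mmrn1, which platelets carry too, had a log2 difference of -0.39, Pdpn of -0.35 and Lyve1 of -0.18.

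For other sinusoid and scavenger genes, 11 of 13 were tested, with 10 lower and 1 higher and a median of -0.46, close to that of the 10 members. With the 6 libraries as labelled 2 of the 11 passed the adjusted threshold, both lower, beside 1.25% of all tested genes called lower. Cd36, a fatty acid and thrombospondin receptor of capillary endothelium, adipocytes, erythroid cells and macrophages, was at 36.3, 29.4 and 42.7 FPKM in wildtype and at 19.4, 12.1 and 13.02 FPKM in KO, with a log2 difference of -1.14 (edgeR adjusted p-value 0.166, and 0.0371 as labelled). Mrc1, the mannose receptor of sinusoids and macrophages, was at 14.04, 10.3 and 15.4 FPKM in wildtype and at 7.61, 8.08 and 7.74 FPKM in KO, with a log2 difference of -0.75 (0.171, and 0.0371 as labelled). Maf and Dnase1l3 had log2 differences of -0.72 and -0.77. Mural cells, the pericytes and smooth muscle cells that wrap vessels, were represented by 11 genes, all tested and all with lower fitted values (median -0.60). The pericyte channel subunit Kcnj8 was at 3.46 to 3.88 FPKM in wildtype and 1.86 to 2.21 FPKM in KO. Its log2 difference was -0.78 (edgeR adjusted p-value 0.197, and 0.0436 as labelled, beside the same 1.25% of all tested genes called lower). Rgs5 and Pdgfrb had values of -0.56 and -0.60. Tagln, a smooth muscle gene, was at 28.2 FPKM in wildtype replicate 3 and at 0.920 to 2.12 FPKM in the other libraries, and its log2 difference was -3.24.

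Genes of other cell types also differed between the libraries, and their part in the vessel values was not tested. For macrophages, which share Stab1 and Mrc1, all 16 genes were tested, 14 lower and 2 higher, with a median of -0.47 and summed levels of 480 to 633 FPKM in wildtype and 377 to 463 FPKM in KO. With the 6 libraries as labelled 3 of the 16 passed the adjusted threshold, all lower (Mrc1, Spic and Hmox1, beside 1.25% of all tested genes called lower). The first 2 genes of the list, Adgre1 and Csf1r, had log2 differences of 0.003 and 0.02 and were the 2 that were not lower, while Spic and Hmox1, named here after their values were seen, had -0.88 and -0.75. For megakaryocytes and platelets, which share Pecam1, all 12 genes had lower fitted values (median -0.24), with 1119 to 1378 FPKM in wildtype and 954 to 1065 FPKM in KO, and Pf4 and Ppbp were at -0.23 and -0.29. For blood stem and progenitor cells, which share Tek, 9 of 10 genes were tested, 5 higher and 4 lower (median 0.10), and Kit and Cd34 were at 0.26 and 0.16. Marrow stromal cells, which adjoin the sinusoids, had 8 of 9 genes tested and all 8 lower (median -0.55), with 266 to 368 FPKM in wildtype and 165 to 230 FPKM in KO. With the 6 libraries as labelled 2 of the 8 passed the threshold, both lower (Adipoq and Kitl, beside the same 1.25%), and Cxcl12 and Lepr had log2 differences of -0.63 and -0.42.

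The other lists spanned a wide range of medians. B cell genes (11 of 11 lower, median -1.50, Cd79a -1.35) and erythroid genes (9 of 9 lower, -0.91, Hba-a1 -0.99 and Hba-a2 -0.98) were lower than the vessel genes. Neutrophil genes were higher in KO (13 of 13, 0.85, Elane 0.87 and Mpo 0.95). T and NK cell genes had a median of -0.57 (7 of 7 lower, Cd3d -0.57 and Cd3e -0.31), osteoblast and osteocyte genes of -0.41 (9 of 11 lower, Bglap -0.84 and Bglap2 -0.79) and osteoclast genes of -0.93 (7 of 8 lower, Ctsk -0.92 and Acp5 -0.96). Chondrocyte genes had a median of 0.08 (8 of 13 higher, Col2a1 -0.35 and Acan 0.04), fibroblast and tendon genes of -0.47 (5 of 7 lower, Pdgfra -0.47 and Col1a2 -0.65) and proliferation genes of -0.002 (3 of 6 higher, Mki67 -0.10 and Top2a 0.13). Skeletal muscle genes summed to 159 FPKM in KO replicate 1, 5.45 and 4.58 FPKM in KO replicates 2 and 3, and 36.9 to 294 FPKM in wildtype (7 of 7 lower, median -0.56, Acta1 -0.53). With 5 samples 0 genes of these lists passed the adjusted threshold. With the 6 libraries as labelled 9 B cell genes passed, all lower, beside 1.25% of all tested genes called lower. In the same fit 5 neutrophil genes passed, all higher, beside 378 of all 15373 tested genes called higher.

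**Figure D5:**
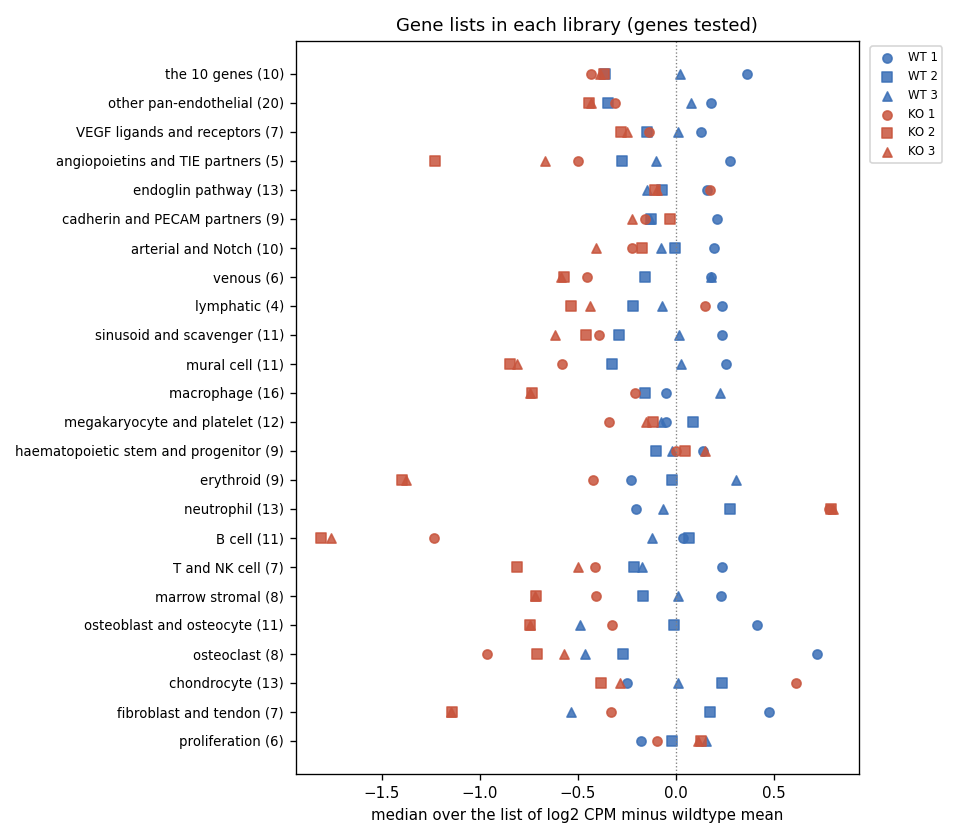
Median over each gene list of log2 CPM minus the wildtype mean (x axis) in wildtype (WT, blue) and KO (red) libraries, with the number of genes tested in brackets and the skeletal muscle list left out because it reached beyond the axis. For the 10 genes and the other pan-endothelial genes, wildtype replicate 2 lies with the KO libraries, while for B cell genes all wildtype libraries lie between -0.12 and 0.07 and the KO libraries between -1.81 and -1.24.

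The levels of the gene lists in the wildtype libraries are given as medians relative to the wildtype mean. For the 10 vessel genes they were 0.36, -0.36 and 0.02 in replicate order, and for the other pan-endothelial genes 0.18, -0.35 and 0.08. Replicate 1 was highest and replicate 2 lowest also for mural cell genes (0.26, -0.33 and 0.03), sinusoid and scavenger genes (0.23, -0.29 and 0.02), marrow stromal genes (0.23, -0.17 and 0.01), T and NK cell genes (0.24, -0.21 and -0.17) and stem and progenitor genes (0.14, -0.10 and -0.02). VEGF genes (0.13, -0.15 and 0.01), angiopoietins and TIE partners (0.28, -0.27 and -0.10) and lymphatic genes (0.24, -0.22 and -0.07) had this order too. Macrophage genes were lowest in replicate 2 as well, at -0.16, but highest in replicate 3, at 0.23. Venous genes were lowest in replicate 2 and about level in the others (0.181, -0.155 and 0.183). Arterial and Notch genes were highest in replicate 1 but lowest in replicate 3 (0.20, -0.002 and -0.07). So were endoglin pathway genes (0.16, -0.07 and -0.15) and partners of cadherin and PECAM (0.21, -0.125 and -0.130). Chondrocyte genes had the reverse of the vessel order, lowest in replicate 1 and highest in replicate 2 (-0.25, 0.24 and 0.01). Erythroid genes (-0.23, -0.02 and 0.31), B cell genes (0.04, 0.07 and -0.12) and neutrophil genes (-0.20, 0.28 and -0.07) had other orders. Bone cell genes were highest in replicate 1 too, but lowest in replicate 3, at 0.72, -0.27 and -0.46 for osteoclast genes and 0.42, -0.01 and -0.49 for osteoblast and osteocyte genes.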

How the data were processed

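RNA was purified from mouse articular cartilage with TRIzol, selected with oligo(dT) beads and made into strand-specific libraries with molecular identifiers. The submitters' processing notes name cutadapt 1.9, HISAT2 2.0.4, UMI-tools, StringTie 1.3.4d, DESeq2 and edgeR, without roles. The genome build is not given in the sources used here, and 9 of the 10 gene spans equal those of GENCODE M21 (GRCm38). The authors deposited FPKM values and estimated counts per gene in 1 table, with whole numbers as counts. Which gene was knocked out is not reported here.

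Groups were taken from the labels. Total counts were 52268311 to 63331135 per library. Every pair of libraries differed by more than counting error, at 5.77 times Poisson sampling for KO replicates 2 and 3 and far more for the others. Genes averaging 0.5 FPKM or more were tested with edgeR 4.0.16 (R 4.3.3; TMM scaling, quasi-likelihood test, Benjamini-Hochberg adjustment over all tested genes, threshold 0.05), with KO replicates 2 and 3 averaged as 1 sample. The scripts were tested on simulated data. Alternatives were other scalings and filters, limma 3.58.1 on log2(FPKM + 1), DESeq2 1.42.0, the 6 libraries as labelled, a replicate block and each library left out. Ratios were compared by exact permutation tests. From each vessel list, the genes of at least 1 FPKM with the smallest p-values were named, up to 4, and from each other list the first 2 where tested and reported here. The members and lists were chosen with earlier results of these data known, and lists share some genes. Promoters came from RefSeq (GRCm38.p6), which matched 8 of the 10 genes.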

Additional observations from a re-analysis of the deposited data

How the results depend on the processing

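In all 19 fits 0 of the 10 genes passed the adjusted threshold, and the lowest adjusted p-value by edgeR was 0.119, for Emcn with the replicate block. Fitted differences were negative for all tested members in every fit but that without wildtype replicate 1, where Tie1 was at 0.010 (its other end was -0.15, without wildtype replicate 2). The members' median was -0.46, between -0.60 and -0.28 with 1 library left out, and -0.30 with limma on quantile-normalized values. Over all genes 0 passed, with 2106 at an unadjusted p-value under 0.05 by edgeR, against 21 with no filter on low values, 880 with DESeq2, 570 with the 6 libraries as labelled, 0 to 352 with 1 library left out (352 without KO replicate 1) and 9 without KO replicates 2 and 3. Of the members, 0 to 8 were at an unadjusted p-value under 0.05 with 1 library left out. A minimum of 5 FPKM left 2 members, Pecam1 and Eng. Deviations of same-numbered libraries from their group means had correlations of -0.14, -0.11 and -0.06, which gave no sign that the shared replicate numbers pair the samples. They cannot exclude a pairing, since KO replicates 2 and 3 are so alike that the correlations are not separate checks. With the replicate block on the 6 libraries, 0 genes passed, 2809 were at an unadjusted p-value under 0.05 by edgeR, and the members' median was -0.42.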
